A study of Homo sapiens with 6 samples.

Results

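The IL-1 family cytokines and receptors studied here were 9 genes, chosen by symbol, of the 16390 genes listed per library. They were the agonists IL1A and IL1B, the receptor antagonist IL1RN, the related cytokines IL18, IL33 and IL36G, the signalling receptor IL1R1, the decoy receptor IL1R2 and the shared receptor subunit IL1RAP, and all 9 had a row in every library. Total RNA was sequenced from SW780, an established human line of bladder cancer treated by the study as luminal, in 3 Control libraries and in 3 libraries of cells that had received RC48 at 25 µg/ml. RC48 is an antibody–drug conjugate against ERBB2 that carries the microtubule inhibitor monomethyl auristatin E, and the comparison asks which mRNAs differ between RC48-exposed SW780 and Control. All 6 libraries came from the same cell line, and neither the exposure time nor whether replicates were separate cultures is given in the sources used here, so p-values measure the spread between these libraries, which may be technical.

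IL-1α, encoded by IL1A, and IL-1β, encoded by IL1B, bind the receptor IL1R1, which then recruits IL1RAP and signals through MYD88 and IRAK kinases to NF-κB. The antagonist encoded by IL1RN occupies IL1R1 without recruiting IL1RAP, and IL1R2 binds the same cytokines but lacks the intracellular signalling domain. IL-1β and IL-18 are made as precursors that caspase-1 cleaves, whereas the precursor of IL-1α is already active and acts as an alarm signal when cells are damaged, epithelial cells included.

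Estimated counts summed to 16453233 to 17026155 in the Control libraries and to 17271978 to 17988030 in the RC48 libraries. Counts were scaled to CPM, counts relative to the size of a library, with TMM normalization, and 13055 genes with enough counts were tested with edgeR's quasi-likelihood test. A gene was called at a Benjamini-Hochberg adjusted p under 0.05. The chi-square statistic per degree of freedom, near 1 for libraries that differ by sampling noise alone, was 1.44 to 11.6 between Control libraries and 22.3 to 136 between RC48 libraries. The ratio of an RC48 library to the Control mean followed the GC content of the genes in RC48 replicates 1 and 3 (Spearman's rho 0.742 and 0.571 across 13000 genes, which are not independent) and hardly in replicate 2 (-0.0147). A correction for this trend was among the alternatives. All 11 epithelial and luminal markers were detected and 0 were called by edgeR (3 fell at an unadjusted p under 0.05, 1 in DESeq2 and 3 in limma), and their CPM summed to 7200 to 8140 in Control and 7540 to 8680 after RC48. KRT8, KRT18 and KRT19 made up most of this sum. KRT20, FOXA1 and EPCAM had every RC48 library below every Control library, with log2 differences of -1.55, -0.44 and -0.49. This pattern held in 14.1% of all genes tested. The groups of the other markers overlapped. KRT20 was close to the threshold (edgeR adjusted p = 0.0514) and was called with the correction for GC content. Over all genes, 2417 of 13055 had an unadjusted p under 0.05, and edgeR called 2.12%, DESeq2 4.78% and limma 22.9%.

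Of the 9 members, IL1A and IL1B were upregulated after RC48, IL1RN, IL18, IL1R1 and IL1RAP were tested and not called, and IL33, IL36G and IL1R2 had too few counts to be tested. Thus 2 of the 6 members tested were called, both upward, where 2.12% of all genes tested were called and 1.9% were called upward. The median log2 fold change was 0.28 over the 6 members and 0.02 over all genes tested. The plot of CPM by library shows all 9 members.

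**Figure D1:**
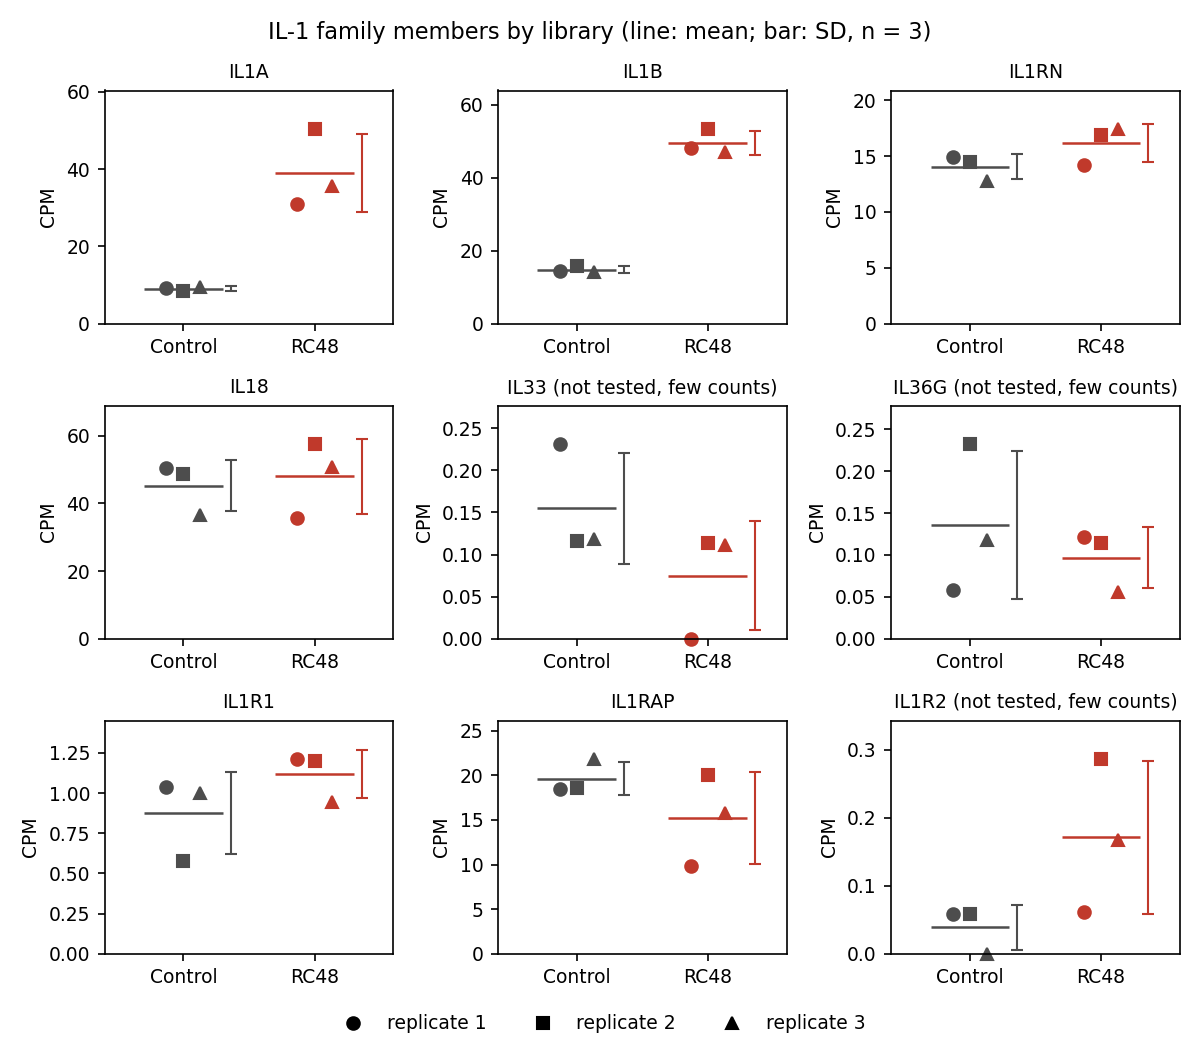
CPM of each member on a linear axis from 0 in the 3 Control (grey) and 3 RC48 (red) libraries, with marker shapes for replicates, a line at the mean and a bar of 1 SD (n = 3). For IL1A and IL1B every RC48 library lies above every Control library, whereas the groups overlap for IL1RN, IL18, IL36G, IL1R1 and IL1RAP. In IL33 and IL1R2 the closest libraries of both groups have equal counts and differ in CPM only through the scaling.

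IL1A lies on chromosome 2, at chr2:112773925-112784493 on the minus strand of GRCh38.p14, and IL1B lies beside it at chr2:112829751-112836779, also on the minus strand. The interval between both genes measures 45.3 kb. IL1RN, at chr2:113099360-113134014 on the plus strand, lies 262.6 kb beyond IL1B in the same cluster. The 250 bases upstream of an annotated start of each of these 3 genes are shown because IL1A and IL1B rose while the antagonist in the same cluster was not called. Capitals mark matches to TGANTCA, the AP-1 site, or TATAAA, the TATA box, on either strand. The sequences run 5′ to 3′ on the strand of the gene and were taken from RefSeq (GRCh38.p14), from chr2:112784494-112784743 for IL1A, chr2:112836780-112837029 for IL1B and chr2:113117721-113117970 for IL1RN.
IL1A: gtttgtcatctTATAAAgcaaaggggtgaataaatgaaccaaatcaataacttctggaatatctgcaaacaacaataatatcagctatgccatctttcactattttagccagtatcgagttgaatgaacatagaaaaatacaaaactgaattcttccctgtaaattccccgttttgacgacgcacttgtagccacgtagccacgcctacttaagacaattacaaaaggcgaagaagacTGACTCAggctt
IL1B: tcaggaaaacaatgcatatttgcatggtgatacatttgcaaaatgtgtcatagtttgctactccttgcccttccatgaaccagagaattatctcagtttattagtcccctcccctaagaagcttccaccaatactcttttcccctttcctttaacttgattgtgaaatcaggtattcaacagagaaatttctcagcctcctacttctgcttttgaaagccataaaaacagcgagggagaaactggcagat
IL1RN: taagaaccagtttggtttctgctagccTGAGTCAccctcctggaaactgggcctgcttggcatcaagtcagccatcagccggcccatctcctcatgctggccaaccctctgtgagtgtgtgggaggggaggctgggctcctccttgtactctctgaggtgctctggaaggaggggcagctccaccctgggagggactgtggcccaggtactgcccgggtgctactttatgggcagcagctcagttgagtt

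The IL1A window held an AP-1 match at positions -12 to -6 relative to the start and a TATA box match at -239 to -234, which do not overlap. For the second IL1A start in the table, whose window covers part of the same bases, AP-1 matches stood at -105 to -99 and -55 to -49. The IL1B window held no match to either motif or to the NF-κB consensus, which says only that these letters were not in this window. The IL1RN window shown held an AP-1 match at -223 to -217. The windows of the IL1RN starts at chr2:113127489 and chr2:113127598 held no AP-1 match. The latter held TATA box matches at -32 to -27 and -30 to -25. The decoy receptor IL1R2 was the member with an NF-κB consensus match, at -125 to -116. Windows were found for 8 of the 9 members, with 16 starts in all. Of 34788 such windows in the RefSeq table, 6.59% held an AP-1 match, 10.8% a TATA box match and 9.95% an NF-κB consensus match, so such matches are common and are given as a description.

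IL1A mRNA, which encodes the agonist IL-1α, was counted 159, 144 and 162 times in Control replicates 1, 2 and 3 and 511, 880 and 642 times in RC48 replicates 1, 2 and 3. In CPM these were 9.19, 8.34 and 9.54 in Control and 31.0, 50.3 and 35.7 after RC48. All 3 RC48 libraries exceeded all 3 Control libraries, a pattern seen in 17.4% of all genes tested, and RC48 replicate 2 was the highest. Mean CPM was 9.03 ± 0.615 in Control and 39.0 ± 10 after RC48 (SD, n = 3 each), a 4.32-fold rise or a log2 fold change of 2.11 (SE 0.21, 95% interval 1.63 to 2.60, quasi-likelihood test of edgeR, Benjamini-Hochberg adjusted p = 0.00274). Without Control replicate 3 the log2 fold change was 2.15 with an adjusted p of 0.051 in edgeR, which misses the threshold, and with the correction for GC content it was 2.48.

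IL1B mRNA, which encodes the agonist IL-1β, was counted 251, 273 and 239 times in Control and 792, 933 and 847 times after RC48. In CPM these were 14.5, 15.8 and 14.1 in Control and 48.1, 53.3 and 47.1 after RC48, so the groups were apart and the RC48 libraries lay close together. Mean CPM was 14.8 ± 0.907 in Control and 49.5 ± 3.30 after RC48 (SD, n = 3 each), a 3.34-fold rise or a log2 fold change of 1.74 (SE 0.13, 95% interval 1.43 to 2.05, edgeR adjusted p = 0.00081). IL1B was called in all 16 alternatives of the processing, with log2 fold changes of 1.47 to 1.79, where the alternatives called from 0.462% of all genes tested (without Control replicate 3) to 27.7% (without RC48 replicate 2).

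Because leukocytes are a well-known source of IL-1β, markers of leukocytes were read beside both rises. Of 16 leukocyte markers 13 were listed and 8 tested, all 8 were higher after RC48 with a median log2 fold change of 0.59, and 1 was called. At an unadjusted p under 0.05, 5 were higher, and limma called 2. Over all genes tested edgeR called 2.12% and limma 22.9%, and 2417 of 13055 had an unadjusted p under 0.05. In 6 of the 8 the groups were apart, with RC48 higher, a pattern seen in 17.4% of all genes tested. The CPM of the listed markers summed to 38.4 to 40.3 in Control and 48.5 to 86.4 after RC48. CORO1A and CD68 had 35.3 and 34.1 CPM in RC48 replicate 1, the library with the strongest GC trend. In replicate 2 they had 18.2 and 17.5 CPM. With the correction for GC content all 8 tested markers stayed higher, with a median of 0.44 and 1 called. The defining leukocyte gene PTPRC, which encodes CD45, had 0 counts in every Control library and 1, 1 and 0 counts in RC48 replicates 1, 2 and 3. CSF1R, the receptor of macrophage colony-stimulating factor, had 0 counts in Control and 4 over the RC48 libraries. CD14, a monocyte marker, had 6, 8 and 4 counts in Control and 23, 14 and 12 after RC48, and CD3E, a T cell marker, had 5, 4 and 7 and then 23, 11 and 17. Both were apart and not called (log2 differences 1.42 and 1.64, edgeR adjusted p = 0.168 and 0.119), and RC48 replicate 1 was the highest in each. CD3D, another T cell marker, had 12, 9 and 11 counts and then 16, 12 and 10, and its groups overlapped. Those of LYZ overlapped as well, and neither was called (log2 differences 0.24 and 0.20, edgeR adjusted p = 0.646 and 0.748). NKG7 had 2 counts over Control and 1 over RC48. The called marker was ITGAM, which encodes an integrin subunit of myeloid cells and is singled out here after its values were seen, with 0, 5 and 0 counts in Control and 69, 54 and 65 after RC48, and it missed the threshold without Control replicate 3 (edgeR adjusted p = 0.0834). The part of these markers in the rises of IL1A and IL1B was not tested. Of 9 stromal and endothelial markers 6 were tested and 0 were called by edgeR, with 2 higher and 2 lower at an unadjusted p under 0.05, 3 called by DESeq2 and 2 by limma.

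IL1RN mRNA, which encodes the antagonist of IL1R1, was counted 258, 251 and 218 times in Control and 234, 296 and 313 times after RC48. Its CPM of 14.9, 14.5 and 12.8 in Control and 14.2, 16.9 and 17.4 after RC48 overlapped between the groups. The mean was 14.1 ± 1.11 and 16.2 ± 1.72 CPM (SD, n = 3 each), a log2 difference of 0.20 (SE 0.15, 95% interval -0.14 to 0.54, edgeR adjusted p = 0.412). This interval lies below those of IL1A and IL1B.

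Agonist and antagonist were also set against each other within each library, as the log2 ratio of their counts, which does not depend on library size. Since the genes differ in length, only the difference between groups is read. The log2 ratio of IL1B to IL1RN was -0.04, 0.12 and 0.13 in Control and 1.76, 1.65 and 1.43 after RC48. The groups were apart, with means of 0.07 ± 0.10 and 1.62 ± 0.16 (SD, n = 3 each) and a difference of 1.54 (exact permutation test, two-sided, p = 0.1, which is the minimum for 3 against 3 libraries). The log2 ratio of IL1A to IL1RN was -0.70, -0.80 and -0.43 in Control and 1.13, 1.57 and 1.04 after RC48, again with the groups apart and a difference of 1.88 (exact permutation test, p = 0.1). Both agonists thus moved away from their antagonist in every RC48 library. The log2 ratio of IL1A to IL1B, added after the data were seen, was -0.66, -0.92 and -0.56 in Control and -0.63, -0.08 and -0.40 after RC48. These values overlapped, with a difference of 0.34 (exact permutation test, p = 0.2). As this test cannot fall below 0.1 here, it does not decide whether the rises of IL1A and IL1B differ. Transcripts of IL1A and IL1B have a GC content of 39.1% and 48.9%. With the correction for GC content their log2 fold changes were 2.48 and 1.75, and the difference between these was not tested.

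**Figure D2:**
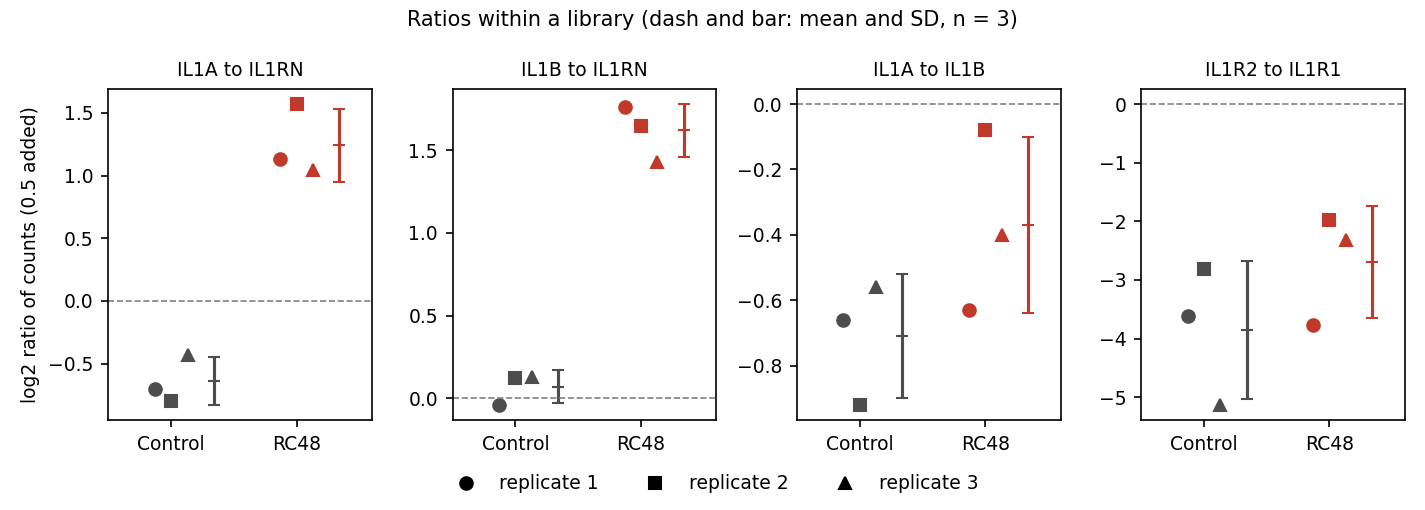
Log2 ratio of the counts of 2 members within each library (0.5 added to each count) for IL1A to IL1RN, IL1B to IL1RN, IL1A to IL1B and IL1R2 to IL1R1, with each panel on its own axis and the mean and SD (n = 3) beside the points. In the panels of IL1A to IL1RN and IL1B to IL1RN the RC48 libraries lie above all Control libraries, and in the other panels the groups overlap.

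IL18, at chr11:112143260-112164094 on GRCh38.p14, encodes the cytokine IL-18, which is constitutively present in many epithelia. It was counted 872, 843 and 624 times in Control and 590, 1007 and 911 times after RC48. In CPM these were 50.4, 48.8 and 36.7 in Control and 35.8, 57.5 and 50.7 after RC48, so the groups overlapped, with Control replicate 3 and RC48 replicate 1 low in their groups. The mean was 45.3 ± 7.48 and 48.0 ± 11.1 CPM (SD, n = 3 each), with a log2 difference of 0.08 (SE 0.21, edgeR adjusted p = 0.806). With the correction for GC content the difference was 0.35 (edgeR adjusted p = 0.146). Its sign turned in 4 of the 16 alternatives, so no direction is given for IL18.

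IL33, at chr9:6215149-6257983, encodes a nuclear alarm cytokine, and it was counted 4, 2 and 2 times in Control and 0, 2 and 2 times after RC48. IL36G, at chr2:112978006-112985658 in the IL1 cluster, encodes a cytokine best known from skin keratinocytes, and it was counted 1, 4 and 2 times in Control and 2, 2 and 1 times after RC48. Both stood close to 0 in all libraries. For IL33 every RC48 library lay below every Control library in CPM, but by no more than the scaling, as 2 libraries of each group had 2 counts. The ratio of RC48 to Control counts was 0.496 for IL33 (95% counting interval 0.109 to 1.85) and 0.709 for IL36G (0.177 to 2.59), and these intervals cover counting error only. At this depth no difference was detectable for either gene. Of the other 5 ligands of the family (IL36A, IL36B, IL36RN, IL37 and IL1F10), 3 were listed and none reached the filter, and the most abundant were IL37, with 10 counts summed over Control and 7 summed over RC48, and IL36RN, with 9 and 12.

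The receptor IL1R1, at chr2:102070390-102179874, was counted 18, 10 and 17 times in Control and 20, 21 and 17 times after RC48. Its CPM was 1.04, 0.579 and 1.00 in Control and 1.21, 1.2 and 0.946 after RC48, low in all libraries and overlapping. The mean was 0.874 ± 0.256 and 1.12 ± 0.151 CPM (SD, n = 3 each), with a log2 difference of 0.35 (SE 0.30, edgeR adjusted p = 0.457), which became 0.59 with the correction for GC content (edgeR adjusted p = 0.274). The decoy IL1R2 lies 41.8 kb from it, at chr2:101991960-102028544, and was counted 1, 1 and 0 times in Control and 1, 5 and 3 times after RC48. The ratio of its counts was 4.47, with a 95% counting interval of 0.924 to 42.5 that includes no difference. In CPM its groups were apart by the scaling alone, at most 0.0579 in Control and at least 0.0607 after RC48, since 2 Control libraries and RC48 replicate 1 each had 1 count. The log2 ratio of IL1R2 to IL1R1 overlapped between groups and differed by 1.17 (exact permutation test, p = 0.3).

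IL1RAP, at chr3:190514085-190659750, encodes the subunit that IL1R1 and the receptors of IL-33 and IL-36 share. It was counted 320, 321 and 370 times in Control and 161.01, 350 and 283 times after RC48. In CPM these were 18.5, 18.6 and 21.8 in Control and 9.78, 20 and 15.8 after RC48, so RC48 replicate 1 was the lowest and replicate 2 lay within the Control range. The mean was 19.6 ± 1.87 and 15.2 ± 5.13 CPM (SD, n = 3 each), with a log2 difference of -0.37 (SE 0.25, 95% interval -0.95 to 0.21, edgeR adjusted p = 0.38). IL1RAP transcripts have a GC content of 39.3%, and RC48 replicate 1 was the library with the strongest GC trend. The log2 difference was -0.14 when RC48 replicate 1 was left out, -0.62 when RC48 replicate 2 was left out (edgeR adjusted p = 0.06) and -0.03 after correcting for GC content. It was called in 1 alternative, limma on log2(TPM+1) of 5 libraries, at -0.70 (limma adjusted p = 0.0474), where 22.9% of all genes tested were called. The plot of fold changes shows IL1R1 and IL1RAP beside the agonists.

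**Figure D3:**
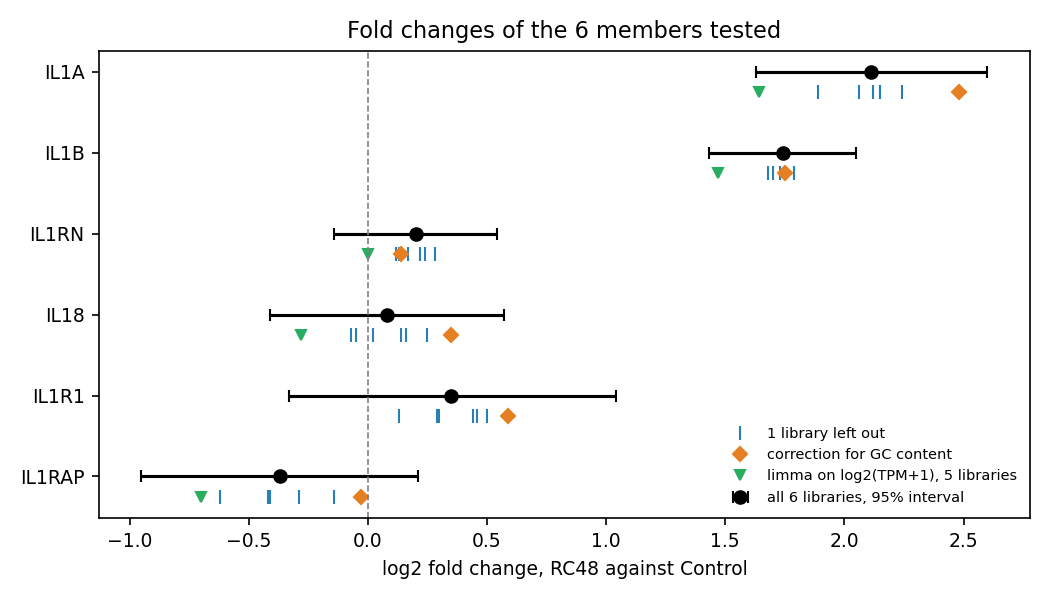
Log2 fold change of RC48 against Control for the 6 members tested, with the 95% interval from edgeR (black) and, below each, the values with 1 library left out (blue), with the correction for GC content (orange) and from limma on log2(TPM+1) in 5 libraries (green, no value for IL1R1). IL1A and IL1B stay above 1.4 throughout, and the intervals of the other 4 members include 0.

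Levels of different genes were compared per length, as TPM, the transcripts of a gene as a share of all transcripts of a library, in the 5 libraries with TPM. In Control the order was IL18 (99.3 ± 11.4 TPM), IL1B (21.9 ± 0.920 TPM), IL1RN (17.6 ± 0.587 TPM), IL1A (9.33 ± 1.07 TPM) and IL1RAP (8.79 ± 1.06 TPM, SD, n = 3 each), followed by IL1R1, IL36G, IL33 and IL1R2, each close to 0. IL1A and IL1RAP overlapped and were not separated by their spread, nor were the 4 lowest genes from their neighbours, whereas each of the other steps in the order exceeded the range over libraries. After RC48, IL1B stood at 59.86 and 65.3 TPM and IL1A at 27.61 and 34.74 TPM in replicates 1 and 3. IL1A then passed IL1RN, which stood at 15.33 and 20.26 TPM, and so moved from the fourth to the third rank. IL18 stood at 63.83 and 103.37 TPM, so its range over the RC48 libraries overlapped with that of IL1B. Of the summed TPM of the 9 members, IL1B held 12.7%, 14.0% and 15.1% in Control and 35% and 28.3% after RC48, while IL18 held 65.4%, 64.1% and 58.8% and then 37.3% and 44.8%. The ranks and shares after RC48 rest on replicates 1 and 3, the libraries with the GC trend (rho 0.742 and 0.571). IL18 transcripts have a GC content of 41.7%, and in CPM IL18 was highest in RC48 replicate 2, at 57.5. No fall of IL18 mRNA is therefore read from its share.

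The remaining genes of the pathway were read from lists, chosen with earlier results of these data known. Of 8 other receptors and binding proteins of the family 7 were listed, 3 were tested and 0 were called by edgeR, by DESeq2 or by limma, nor at an unadjusted p under 0.05. They were SIGIRR, an inhibitory receptor of the family, at 22.8 ± 2.93 CPM in Control and 27.6 ± 6.99 CPM after RC48, IL18BP, which neutralizes IL-18, at 5.56 ± 0.973 and 6.12 ± 1.31 CPM, and IL18R1, a subunit of the IL-18 receptor, at 1.34 ± 0.216 and 1.48 ± 0.859 CPM (SD, n = 3 each). With the correction for GC content their log2 differences were -0.05, -0.07 and 0.47 (edgeR adjusted p = 0.779, 0.817 and 0.41). Among all genes tested, edgeR called 2.12%, DESeq2 4.78% and limma 22.9%, and 2417 of 13055 had an unadjusted p under 0.05.

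Of 19 signalling proteins below the receptors 18 were tested, of which 1 rose and 1 fell, with a median log2 fold change of 0.07. At an unadjusted p under 0.05, 3 were higher and 2 lower, DESeq2 called 2 up and 1 down, and limma called 2 up and 5 down, so the balance of directions differed between tools. It differed over all genes too, where DESeq2 called 488 up and 188 down and limma 792 up and 2044 down. These were 4.78% of all genes tested in DESeq2 and 22.9% in limma. An unadjusted p under 0.05 in edgeR was found for 2417 of 13055 genes. IRAK2, a kinase of the receptor complex, had 103, 102 and 109 CPM in Control and 170, 162 and 170 CPM after RC48, with a log2 fold change of 0.68 (SE 0.11, edgeR adjusted p = 0.0216). PELI2, a ubiquitin ligase that binds IRAK proteins, had 3.82, 3.59 and 4.0 CPM in Control and 1.88, 2.23 and 1.61 CPM after RC48, with a log2 fold change of -0.99 (SE 0.19, edgeR adjusted p = 0.0479). PELI2 missed the threshold in 6 of 16 alternatives, among them the replicate block (edgeR adjusted p = 0.0619) and no filter (edgeR adjusted p = 0.0503). The groups of both genes were apart, and over all genes tested 1.9% were called upward and 0.222% downward. Every RC48 library lay above all Control libraries in 17.4% of genes tested and below them in 14.1%. The adaptor MYD88 stood at 66.6, 70.3 and 72.7 CPM in Control and 131, 86.2 and 102 CPM after RC48, also apart, with a log2 difference of 0.61 and an edgeR adjusted p of 0.153, which missed the threshold. It was called with the correction for GC content, at 0.38 (edgeR adjusted p = 0.0306). The most abundant genes of the list in Control were IRAK1, at 250 ± 9.12 CPM and then 266 ± 30.7 CPM, and UBE2V1, a ubiquitin-conjugating enzyme variant, at 201 ± 18 CPM and then 155 ± 54.9 CPM (SD, n = 3 each). UBE2V1 had estimated counts that are not whole, so part of its reads may be shared with other transcripts. With any 1 Control library left out, or with RC48 replicate 3 left out, the edgeR calls of this list fell to 0, and without RC48 replicate 2 there were 7. Over all genes tested, 0.462% to 0.653% were called in the former fits and 27.7% without RC48 replicate 2.

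Of 19 genes of cytokine maturation and release 15 were tested and 1 was called, while 5 were higher at an unadjusted p under 0.05, limma called 3 and the correction for GC content 4, all upward. Over all genes tested, edgeR called 2.12%, limma 22.9% and the correction for GC content 6.98%, and 2417 of 13055 had an unadjusted p under 0.05. The gene called was NLRP3, the sensor of an inflammasome that activates caspase-1, with 4, 6 and 4 counts in Control and 16, 20 and 15 after RC48. The groups were apart at this low level, and the log2 fold change was 1.83 (SE 0.33, edgeR adjusted p = 0.0364), and NLRP3 missed the threshold in DESeq2 (adjusted p = 0.0585). CASP1, which encodes caspase-1, stood at 34.2, 35.3 and 30.4 CPM in Control and 31.2, 34.4 and 34.2 CPM after RC48, overlapping and with equal means of 33.3 CPM. GSDMD, which encodes the pore-forming protein that releases IL-1β, stood at 68.6, 71.1 and 64.2 CPM and then at 108, 74.0 and 89.6 CPM, with a log2 difference of 0.41 and an edgeR adjusted p of 0.246. With the correction for GC content the difference of GSDMD was 0.10 (edgeR adjusted p = 0.448). CAPN1 and CAPN2, the large subunits of calpains, which cleave the precursor of IL-1α, were the most abundant of the list, at 778 ± 17.5 and 331 ± 7.41 CPM in Control and 943 ± 219 and 361 ± 25.5 CPM after RC48 (SD, n = 3 each), and neither was called. Their log2 differences with the correction for GC content were -0.04 and 0.04. The edgeR count of this list was 0 when any 1 Control library, or RC48 replicate 3, was left out, and 4 without RC48 replicate 1 or 2. Over all genes tested, 0.462% to 0.653% were called in the former fits. The share was 6.78% without RC48 replicate 1 and 27.7% without RC48 replicate 2.

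Of 26 genes known as targets of IL-1 signalling 21 were tested, 16 rose and 0 fell in the edgeR test (18 and 0 at an unadjusted p under 0.05, 16 and 0 in DESeq2, 18 and 0 in limma), and the median log2 fold change was 3.01. Most of these genes are targets of NF-κB and respond to other stimuli as well, so the list is not particular to IL-1. In the whole table, edgeR called 1.9% of genes tested upward, and DESeq2 called 4.78% and limma 22.9% in either direction. An unadjusted p under 0.05 in edgeR was reached by 2417 of 13055 genes, also in either direction. CXCL1, a neutrophil chemokine, had 14, 16 and 9 counts in Control and 1305, 1440 and 1322 after RC48, with a log2 fold change of 6.68 (SE 0.21, edgeR adjusted p = 2.86e-05). CXCL8, which encodes the neutrophil chemokine IL-8, had 22, 31 and 28 counts and then 1142, 2826 and 1658, with a log2 fold change of 6.09 (SE 0.39, edgeR adjusted p = 0.000563). In both genes the lowest RC48 library lay far above the highest Control library. SAA1, an acute-phase protein, had 1 count in all of Control and 73 in all of RC48, and its reads may be shared with its near-identical paralog SAA2. CCL2, a monocyte chemokine, had 1 count in Control and 49 after RC48, a ratio of 48.6 with a 95% counting interval of 8.33 to 1960. CCL20, which attracts lymphocytes and dendritic cells, had 5 and 189 counts, and the chemokine CXCL3 had 5 and 177.

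The 2 targets most abundant in Control had smaller log2 differences. TNFAIP2, a gene induced by tumour necrosis factor, had 1060 ± 56.2 CPM in Control and 1730 ± 43.4 CPM after RC48 (SD, n = 3 each), and its log2 fold change was 0.71 (edgeR adjusted p = 0.0202). PTGS2, the inducible cyclooxygenase of prostaglandin synthesis, stood at 377, 374 and 419 CPM in Control and 313, 560 and 366 CPM after RC48, with overlapping groups and a log2 difference of 0.08 (edgeR adjusted p = 0.807). With the correction for GC content these calls changed places, with PTGS2 called at 0.53 (edgeR adjusted p = 0.0266) and TNFAIP2 not called at 0.45 (edgeR adjusted p = 0.135). The count of 16 was 9 when genes needed at least 10 counts in every library, which removes targets near 0 in Control, and 12 to 17 when 1 library was left out. Of all genes tested, 1.7% were called with that minimum and 0.462% to 27.7% with 1 library left out.

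**Figure D4:**
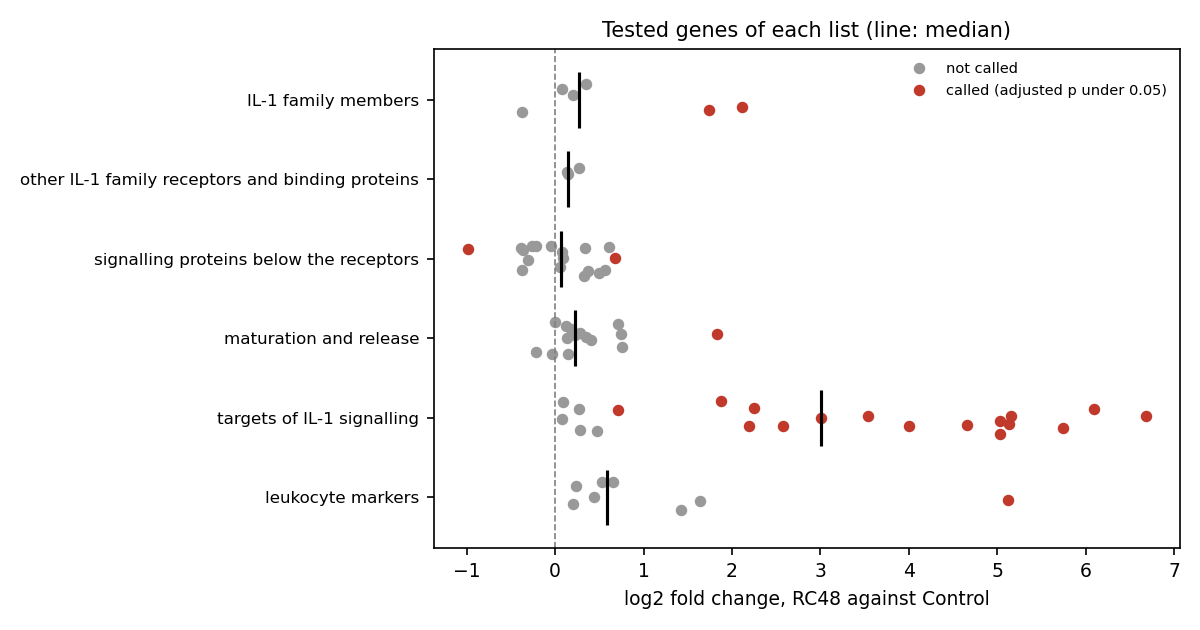
Log2 fold change of RC48 against Control for each tested gene of the IL-1 family members, 4 lists of the pathway and its surroundings, and the leukocyte markers, with called genes in red and the median of each list as a line. The targets of IL-1 signalling reach 6.68 with a median of 3.01, while the medians of the receptor, signalling and maturation lists lie at 0.15, 0.07 and 0.23.

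The genes whose pattern over the 6 libraries was most like that of each called member were found by the root mean square difference of log2 CPM, each centred on its Control mean, among 10176 genes that reached 10 CPM in 1 group or both. For IL1A these were SLC7A2, a transporter of cationic amino acids (0.147), KYNU, an enzyme of tryptophan breakdown (0.172), and IL23A, a subunit of IL-23 (0.191). For IL1B they were BMP2, a growth factor of the TGF-β superfamily (0.149), PTX3, a soluble pattern recognition protein (0.165), and PDGFB, a platelet-derived growth factor chain (0.167). IL23A is also a gene of the target list, with a mean of 2.44 CPM in Control and 11.6 CPM after RC48.

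Genes next to the members were examined within 300 kb of the cluster of IL1A to IL1RN, a window added after the data were seen. It held 17 protein-coding genes, of which 15 were listed, 10 tested and 3 called by edgeR, where 2.12% of all genes tested were called. The window was placed around the members, so IL1A and IL1B are among the 3 by choice. Besides IL1A and IL1B, the called gene was SLC20A1, a phosphate transporter, which fell from 666 to 410 CPM with a log2 fold change of -0.70 (SE 0.11, edgeR adjusted p = 0.0182). CKAP2L, the protein-coding gene next to IL1A on the side away from IL1B, stood at 54.4 CPM in Control and 39.8 CPM after RC48 and was not called (log2 difference -0.45, SE 0.25, edgeR adjusted p = 0.324). In the window of IL1R2 to IL1R1, 4 of 8 protein-coding genes were tested and 0 were called by edgeR, DESeq2 or limma, with 0 also at an unadjusted p under 0.05. DESeq2 called 4.78% of all genes tested and limma 22.9%, and 2417 of 13055 had an unadjusted p under 0.05 in edgeR.

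**Figure D5:**
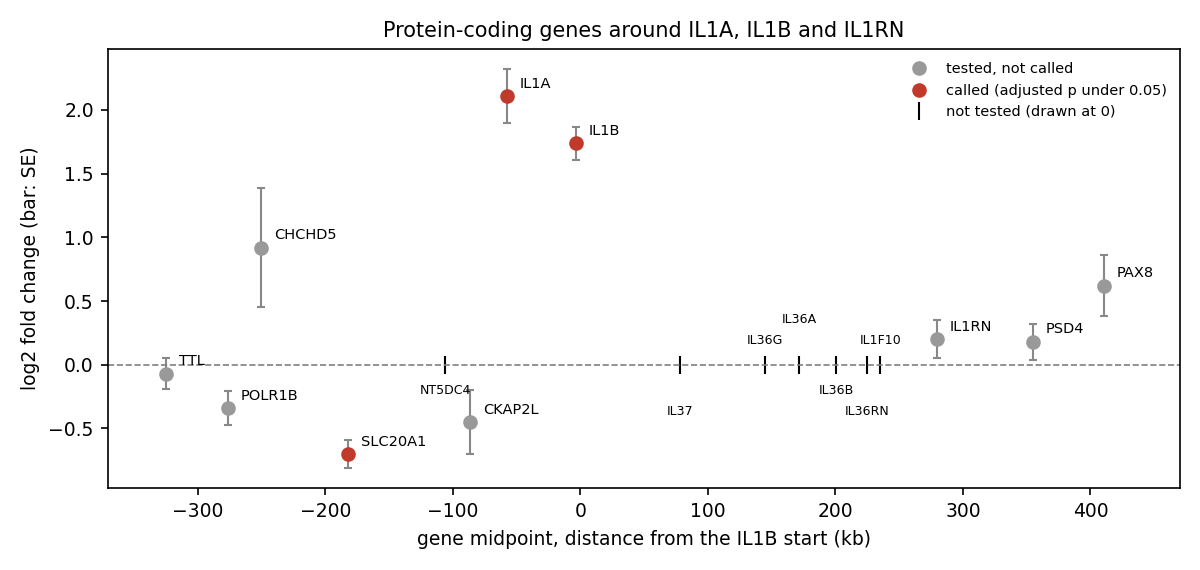
Log2 fold change (bar: SE) of the protein-coding genes within 300 kb of the IL1A to IL1RN cluster against the distance of the gene midpoint from the IL1B start, with genes that were not tested drawn as ticks at 0. IL1A and IL1B stand above their neighbours on both sides, and SLC20A1 is the called gene below 0.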

How the data were processed

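Total RNA of 3 Control and 3 RC48-exposed SW780 libraries was sequenced at BGI. Reads were cleaned by the authors with SOAPnuke and aligned with Bowtie2, and RSEM gave values per gene. The submitters' processing notes also name hg38 and limma, with versions not given in the sources used here. The values deposited by the authors are RSEM's estimated counts per gene, not normalized, of which 11.7% to 15.0% per library are not whole, so reads shared by similar genes were split by estimate. The TPM deposited by the authors, normalized for gene length and library size, was used for 5 libraries, and TPM of RC48 replicate 2 was not used here.

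Estimated counts were rounded, filtered with filterByExpr, normalized by TMM and tested for RC48 against Control without covariates in edgeR (robust quasi-likelihood fit, R 4.3.3, edgeR 4.0.16, limma 3.58.1), with Benjamini-Hochberg adjustment over 13055 genes at 0.05. The procedure was tested on simulated counts with the same dispersion for every gene and library and no GC trend. That test therefore does not cover the unequal spread and GC trend of the RC48 libraries. Ratios used counts with 0.5 added and two-sided exact permutation tests. Counting intervals cover counting error only. GC content came from GENCODE v29 transcripts and was found for 99.4% of genes, and positions and promoters from RefSeq tables (GRCh38.p14). Named are all members and, from each pathway list, the called genes (at most 6 per direction) and the 2 most abundant in Control, with MYD88, IRAK2, CASP1 and GSDMD. A gene singled out by another path is said to be so. Members and lists were chosen with earlier results of these data known. The 16 alternatives were no filter, a minimum of 10 counts in each library, RLE size factors, scaling to library sizes alone, DESeq2 1.42.0, limma on log2(TPM+1) and log2(TPM+0.1) of genes with at least 1 TPM in 2 libraries, a replicate block, a correction for GC content (loess offset, span 0.3), both together, and each library left out.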

Additional observations from a re-analysis of the deposited data

How the results depend on the processing

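The 277 genes called over the whole table (248 up, 29 down) became 676 in DESeq2, 2836 in limma on log2(TPM+1), 2626 in limma on log2(TPM+0.1), 911 with the correction for GC content (580 up, 331 down) and 772 with the block and the GC correction together. Leaving out 1 library gave 61 (without Control replicate 3) to 3656 (without RC48 replicate 2) calls. The cause was not tested. Members called were 2 under most alternatives, 1 to 2 with 1 library left out and 3 in limma on log2(TPM+1). IL1A was called in 15 of 16 alternatives (log2 fold change 1.64 to 2.48, adjusted p up to 0.051) and IL1B in 16 of 16, while IL1RN was called in 0 of 16 by any tool run and IL1R1 in 0 of 14. IL18 turned to -0.28 in both limma fits and ranged from -0.07 to 0.25 with 1 library left out, with negative values without Control replicate 3 (-0.05) or RC48 replicate 2 (-0.07). In limma on log2(TPM+1) the median of all genes shifted by -0.12, and relative to that median IL1A was at 1.74, IL1B at 1.58, IL18 at -0.17 and IL1RAP at -0.59. With 1 library left out, the log2 difference ranged from 1.47 to 1.63 for IL1B to IL1RN, 1.72 to 1.99 for IL1A to IL1RN and 0.53 to 1.71 for IL1R2 to IL1R1. No pairing of libraries by replicate number was visible: deviations of the same number correlated at 0.002, -0.132 and 0.005, and 0 of 3 Control libraries correlated best with their own number. The GC trend of the RC48 libraries is part of these deviations. Whether libraries were processed in pairs is not given in the sources used here. A replicate block gave 384 calls and 2 members called.

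Depth limits IL33, IL36G and IL1R2, which had at most 9 counts over a group, and no statement on their direction is possible.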

Other observations

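The log2 ratio of IL1RAP to IL1R1 counts, added after the data were seen, was 4.11, 4.94 and 4.40 in Control and 2.98, 4.03 and 4.02 after RC48. Every RC48 library lay below every Control library (difference -0.81, exact permutation test, p = 0.1, the smallest possible with 3 against 3), although neither gene was called. With at most 21 counts of IL1R1 in a library, counting error is part of this spread. The difference ranged from -1.0 to -0.46 with 1 library left out.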
